A study of Mus musculus with 4 samples.

Results

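Serum response factor (Srf), its actin-sensing cofactors Mrtfa and Mrtfb and 7 of their best known cytoskeletal target genes (Acta2, Actg2, Tagln, Cnn1, Myl9, Vcl and Fhl2) were described in mouse myoblasts that carried added wild-type or K97E lamin A. The 10 genes were taken by name, and all 10 were found among the 55416 genes of the expression files. The cells were C2C12, an established mouse myoblast line that can fuse into myotubes when serum is withdrawn. Both groups of 2 libraries were transfected with 3 µg of DNA by Lipofectamine in medium free of serum and antibiotics and were harvested 24 hours later. One group received wild-type lamin A and the other lamin A with the K97E substitution, so that the controls also carried added lamin A, and untransfected or empty-vector cells do not enter the comparison. Nothing in the labels gives the species of the lamin A sequence, its promoter or the share of cells that took up the DNA. The titles of the K97E libraries spell the cell name C1C12, while the cell line field of the same libraries reads C2C12. The replicates are called biological, without a statement that they came from separate cultures, so the p-values measure only the spread between these samples.

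SRF is a transcription factor that binds DNA at the CArG box, a short A/T-rich element between a CC and a GG. The MRTFs are held inactive by monomeric actin. When actin polymerizes they are released, collect in the nucleus and drive SRF at genes for actins and actin-binding proteins, while the ternary complex factors (TCFs) compete for the same surface of SRF at immediate early genes. Lamin A is an intermediate filament protein of the nuclear lamina, and loss of A-type lamins has been linked to poor nuclear entry of MRTF-A through emerin and nuclear actin. In muscle precursors SRF and the MRTFs take part in the expression of cytoskeletal and contractile genes.

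Promoter windows were looked up for all 10 genes in RefSeq (build GRCm38.p6), from 250 bases before to 50 bases after each start of transcription. Windows were found for 8 genes, and Tagln and Actg2 are named only. The windows were searched for the CArG box, which is its own reverse complement in form, so that 1 strand covers both. Srf, Vcl, Fhl2 and Myl9 held at least 1 CArG box, which is 4 of 8 genes (50%), against 488 of all 27025 genes with a window (1.81%) and 535 of all 32851 windows (1.63%). The genes were listed as SRF, its cofactors or known SRF targets, so this share is a description. The stretches around these boxes are shown because they carry the element that the family is named for. They run 5′ to 3′ on the gene's own strand, end before any annotated transcript start, and have the CArG box or CArG-like element in capitals.
Srf, chr17:46556176-46556284, minus strand: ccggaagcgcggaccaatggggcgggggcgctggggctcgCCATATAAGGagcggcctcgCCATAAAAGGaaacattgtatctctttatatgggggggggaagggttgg
Vcl, chr14:20929148-20929220, plus strand: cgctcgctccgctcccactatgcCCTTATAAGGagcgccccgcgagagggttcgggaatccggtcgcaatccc
Fhl2, chr1:43163962-43164032, minus strand: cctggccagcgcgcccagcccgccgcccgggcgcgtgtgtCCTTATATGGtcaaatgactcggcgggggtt
Myl9, chr2:156775263-156775414, plus strand: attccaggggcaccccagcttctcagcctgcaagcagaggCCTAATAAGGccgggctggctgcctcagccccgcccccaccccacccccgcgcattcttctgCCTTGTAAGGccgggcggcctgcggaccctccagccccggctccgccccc

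The base just before the RefSeq start is counted as -1. Srf, which is a known target of its own product, held 2 boxes, from -82 to -73 and from -62 to -53. The box of Vcl lay farther out, from -227 to -218. Fhl2 held a box from -31 to -22 before the start of its main transcript. A second RefSeq start of Fhl2 also held a box, CCAAAAAAGG from -96 to -87, but the transcript that begins there was listed at 0 TPM in all 4 libraries. The box of Myl9 spanned -161 to -152.

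A looser search, chosen after seeing the data, allowed 1 of the 6 central bases to be G or C, and 2792 of the 32851 windows (8.5%) held such a CArG-like element. The second element in capitals in Myl9, from -99 to -90, is of this kind. Acta2 held 2 CArG-like elements and no CArG box: CCCTATATGG from -84 to -75 and CCTTGTTTGG from -34 to -25. The main annotated transcript of Acta2 starts 217 bases upstream of the RefSeq start and so covers both elements. The first exon of that transcript (301 bases) had a mean coverage of 93.9 to 287 reads per base over the 4 libraries, while its most covered exon had 3649 to 7342. Mrtfa held 1 CArG-like element, CCTAAATCGG from -124 to -115 at 1 of its 2 starts. Neither kind of element was found in the windows of Mrtfb (3 starts) or Cnn1. Among the tested genes with a window, 164 of 10200 (1.61%) held a CArG box, and 82 of these 164 (50%) had a K97E-minus-wild-type difference above 0, with a median log2 difference of 0.00.

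**Figure D1:**
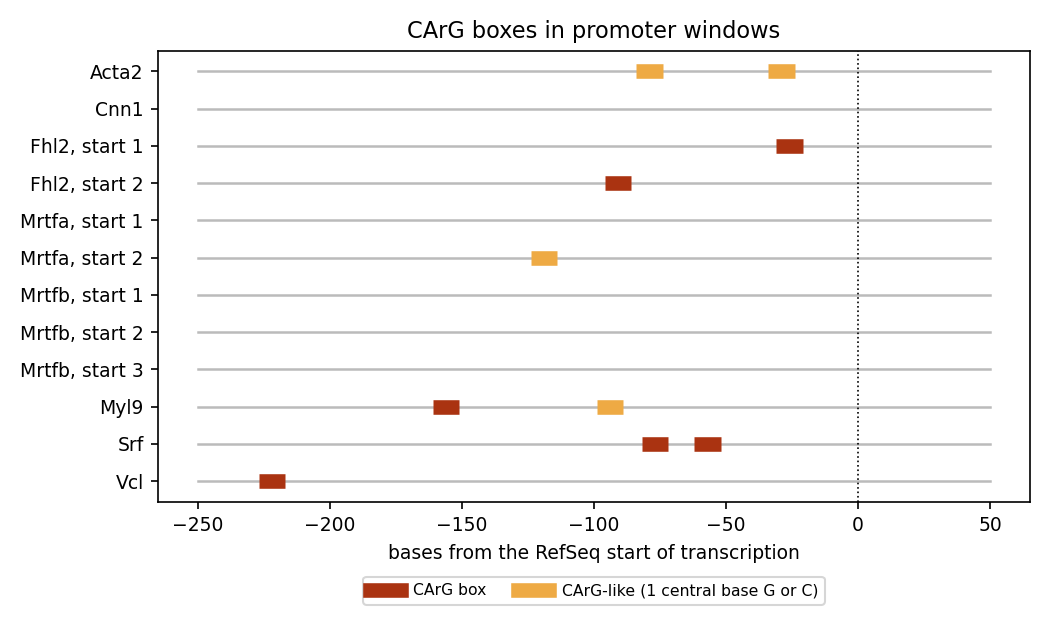
Positions of CArG boxes (red) and CArG-like elements (orange) in the promoter windows of 8 genes, in bases from the RefSeq start of transcription (dotted line); each grey line is 1 window of 300 bases. Boxes were found in Srf, Vcl, Fhl2 and Myl9, all upstream of the start.

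The 4 libraries held an estimated 89612700 to 115619000 reads, computed from coverage, and 14463 to 14684 genes at 1 TPM or more (TPM is a level scaled to transcript length and library size). Gene values are the sum of TPM over the annotated transcripts, divided by a median-of-ratios factor for each library (0.98 to 1.04), and are called scaled TPM. Correlations of log2 values between libraries ran from 0.985 (the wild-type pair) to 0.991 (the K97E pair). Of 16304 genes with a mean of at least 0.5 in TPM as deposited, limma called 1 at a Benjamini-Hochberg adjusted p under 0.05 (0.00613% of genes). The smallest two-sided exact permutation p that 2 against 2 allows is 0.333. The labelled cell type was checked by its markers. Of 10 myoblast markers, 8 were tested, the summed level of the 9 in the files was 781, 928, 746 and 781 scaled TPM (wild-type replicates 1 and 2, then K97E replicates 1 and 2), and Des and Itga7 were the most abundant. Msc was below the minimum and Pax7 was not analysed here. Of 8 differentiated muscle markers, 6 were at or under 1 TPM, and the summed level of all 8 was 3.00, 7.45, 3.63 and 2.57. Fibroblast markers, led by Col1a2 and Col1a1, summed to 1064 to 1146 scaled TPM over the 4 libraries, leukocyte markers, led by Cd14, to 47.7 to 64.3, and endothelial markers, led by Cdh5, to 20.1 to 25.4. Adipocyte, neural and epithelial markers summed to at most 8.88, 7.40 and 0.638. Lmna, the gene of lamin A and C, was at 569, 608, 632 and 631 scaled TPM (log2 difference 0.10 ± 0.10 SE, limma adjusted p = 0.965), a value that cannot tell the added from the cells' own transcript.

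TPM is a level per transcript length, so the 10 genes can be compared with each other. Acta2 was the highest, with a mean of 471 scaled TPM over the 4 libraries, followed by Fhl2 (172), Vcl (160), Myl9 (87.3), Mrtfa (39.0), Srf (36.1), Tagln (27.0), Mrtfb (13.0), Actg2 (1.42) and Cnn1 (0.0174). The ranges over libraries overlapped for the neighbours Fhl2 and Vcl and for the neighbours Mrtfa and Srf. All other neighbours in this order had ranges that did not overlap. The place of Tagln rests in part on exons that overlap other genes, over 61.8% of its main transcript. Whole exons that overlap no other gene were also compared in FPKM, a level per transcript length and library size. Over these, Tagln was at 2.49 to 3.41 and Mrtfb at 4.79 to 5.39, the reverse order. The 3 regulators varied least between libraries, with a highest-to-lowest ratio of 1.08 for Mrtfa, 1.08 for Mrtfb and 1.19 for Srf. The ratio was 1.99 for Myl9, 1.65 for Acta2, 1.57 for Tagln, 1.47 for Vcl, 1.42 for Actg2 and 1.27 for Fhl2. In bulk RNA, fewer cells with a gene on and less RNA in each cell cannot be told apart.

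**Figure D2:**
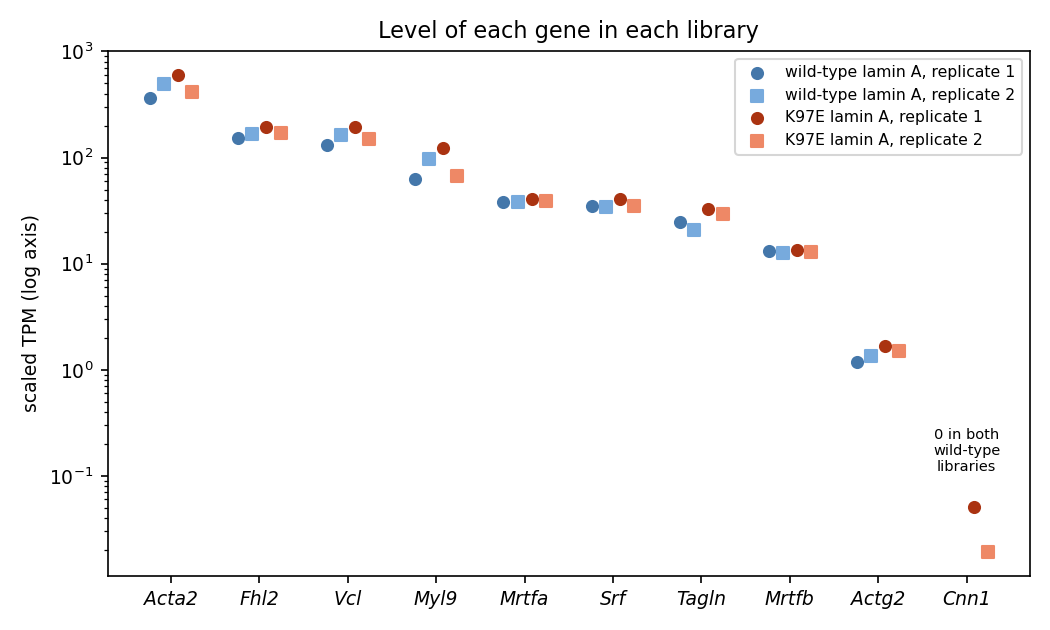
Scaled TPM (log axis) of each of the 10 genes in each of the 4 libraries; each point is 1 library, blue for wild-type and red for K97E lamin A. Acta2 lies highest at 367 to 606, and Cnn1 was 0 in both wild-type libraries, which a log axis cannot show.

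The comparison of K97E with wild-type lamin A asks which transcripts differ in cells given the mutant. Of the 10 genes, 9 passed the level minimum, and 0 of the 9 were called by limma, beside 0.00613% of all tested genes. All 9 differences lay above 0 (K97E higher), against 49.5% of all tested genes. When K97E replicate 1 was left out, 2 of the 9 lay below 0, and when wild-type replicate 1 was left out, 1 did. Their median was 0.22 on the log2(scaled TPM + 0.5) scale (range 0.04 to 0.44), and the median over all tested genes was -0.0017. One of the 9, Tagln, had an unadjusted p under 0.05, which 1.14% of all tested genes had with K97E higher. Both K97E libraries exceeded both wild-type libraries for 4 of the 9 genes (Mrtfa, Actg2, Tagln and Fhl2), against 16.3% of all tested genes. In TPM as deposited, without the scaling, this count was 6 of 9, against 25.9% of all tested genes, with Srf and Mrtfb added.

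Marker genes of muscle and other cells also differed between the libraries. Of the 8 tested myoblast markers, 5 lay below 0 (median log2 difference -0.14), and Myod1, Des, Chrna1 and Vcam1 were lower in both K97E libraries without overlap, which 16.8% of all tested genes were. Chrna1 and Vcam1 had an unadjusted p under 0.05 by limma, which 2.54% of all tested genes had with K97E lower. Of 4 tested smooth muscle and pericyte markers outside the 10 genes, 3 lay above 0 (median 0.12). Pdgfrb, a receptor found on pericytes and fibroblasts, was at 64.4 and 60.3 against 71.4 and 71.1 scaled TPM, and it and Cspg4 were higher in K97E without overlap. Of 4 tested fibroblast markers, 3 (Pdgfra, Col1a1 and Col1a2) were higher in K97E without overlap, with a list median of 0.08. Of all tested genes, 16.3% were higher in K97E without overlap. No marker was called by limma, and the part of these marker differences in the values of the SRF genes was not tested.

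Srf (chr17:46859255-46867101 in GRCm39, the build of the expression files, as for the genes that follow), the DNA-binding factor, was at 35.2 and 33.9 scaled TPM in the wild-type libraries and at 40.4 and 35.0 in the K97E libraries. Only K97E replicate 1 stood above the rest, and the groups overlapped. The means were 34.5 ± 0.910 and 37.7 ± 3.78 (SD, n = 2 each), a log2 difference of 0.12 ± 0.11 SE (95% interval -0.14 to 0.38, limma adjusted p = 0.965). Leaving out K97E replicate 1 gave 0.02 and leaving out K97E replicate 2 gave 0.22. One transcript, ENSMUST00000015749, made up 95.5% to 96.1% of the gene, and it starts 13 bases upstream of the RefSeq start.

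Mrtfa (chr15:80896482-81074958), the cofactor that shuttles between cytoplasm and nucleus with the state of actin, was at 38.2 and 38.1 in the wild-type libraries and at 41.1 and 38.7 in the K97E libraries. The groups did not overlap, yet the step between them, from 38.2 to 38.7, was smaller than the step between the K97E libraries. The log2 difference was 0.06 ± 0.09 SE (95% interval -0.16 to 0.28, limma adjusted p = 0.965). Mrtfb (chr16:13074345-13235393), the second cofactor, was at 13.1 and 12.5 against 13.5 and 12.9, with overlapping groups. Its log2 difference was 0.04 ± 0.10 SE (95% interval -0.22 to 0.30, limma adjusted p = 0.983).

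The split of Mrtfa between its transcripts varied more than its sum. ENSMUST00000239114 was at 13.4, 27.9, 14.4 and 17.4 scaled TPM in wild-type replicates 1 and 2 and K97E replicates 1 and 2, and ENSMUST00000149582 was at 16.8, 4.86, 16.8 and 18.4. Wild-type replicate 2 was high in the first and low in the second. Both transcripts have the same start, end and length (4366 bases), and their sum was steadier, at 30.1, 32.7, 31.2 and 35.8. Taking the most abundant transcript alone turned the Mrtfa difference to -0.28 and the Mrtfb difference to -0.02. For Mrtfb, ENSMUST00000149359 held 78.3% to 88.6% of the gene.

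Acta2 (chr19:34218490-34232990), smooth muscle alpha actin, was at 367 and 493 scaled TPM in the wild-type libraries and at 606 and 419 in the K97E libraries. K97E replicate 1 was highest and wild-type replicate 1 lowest, and the other libraries of each group crossed over. The means were 430 ± 89.0 and 512 ± 132 (SD, n = 2 each), a log2 difference of 0.24 ± 0.23 SE (95% interval -0.32 to 0.81, limma adjusted p = 0.965). The libraries of 1 group differed from each other by more than that, by 0.42 in wild type and 0.53 in K97E. Leaving out K97E replicate 1 gave -0.02, leaving out wild-type replicate 1 gave 0.03, and leaving out wild-type replicate 2 or K97E replicate 2 gave 0.45 or 0.51. ENSMUST00000039631 held 99.7% to 99.9% of the gene.

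Actg2 (chr6:83489887-83513247), smooth muscle gamma actin, was near the level minimum, at 1.17 and 1.34 against 1.67 and 1.51 scaled TPM. The groups did not overlap, on an estimated 62.2 to 110 reads per library. The log2 difference was 0.25 ± 0.18 SE (95% interval -0.20 to 0.71, limma adjusted p = 0.965). It was 0.47 with voom weights and 0.46 with the top transcript alone. That transcript, ENSMUST00000075161, held 46.9% of the gene in wild-type replicate 2 and 77.9% to 90.9% in the other libraries. Actg2 and Acta2 code for nearly the same protein, and their main transcripts were 84.3% identical over 1140 aligned bases, with a longest identical run of 29 bases against reads of 100 bases. All 9 exons of the main Actg2 transcript had coverage in 3 libraries and 8 of 9 in K97E replicate 1. The main Acta2 transcript had coverage in all 9 of its exons in every library. The spread over exons therefore cannot tell whether Acta2 reads were counted for Actg2. How the authors' alignment treated reads that match both actins was not tested.

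Tagln (chr9:45840917-45847356), transgelin (SM22), an actin-bundling protein and a classic SRF target, had the largest difference of the 9 genes. It was at 24.8 and 20.9 scaled TPM in the wild-type libraries and at 32.7 and 29.7 in the K97E libraries. Both K97E libraries lay above both wild-type libraries, with a gap from 24.8 to 29.7. The means were 22.9 ± 2.78 and 31.2 ± 2.15 (SD, n = 2 each), a log2 difference of 0.44 ± 0.12 SE (95% interval 0.14 to 0.75, unadjusted p = 0.0123 and adjusted p = 0.965 by limma), which corresponds to a 1.36-fold ratio. Of all tested genes, 1.52% had a larger positive difference. With any 1 library left out the difference stayed between 0.32 and 0.56.

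Tagln shares sequence with neighbours on the other strand. Its main transcript, ENSMUST00000034590 (94.8% to 97.2% of the gene), overlaps exons of Gm48529 and Pcsk7 over 985 of its 1595 bases (61.8%). The library kit keeps strand, but the recorded quantification command names no strand option, and reads of overlapping genes may have been split between them. Gm48529 was at 3.15 and 3.73 in the wild-type libraries and at 2.50 and 1.98 in the K97E libraries (log2 difference -0.53, adjusted p = 0.965 by limma), and Pcsk7 differed by -0.0028. An alternative chosen after seeing the data took only whole exons that overlap no other gene. For Tagln this left 3 exon intervals over all its transcripts, and 1 of the 5 exons of the main transcript. Over them Tagln had 2.85 and 2.49 against 3.41 and 3.24 on the FPKM scale (a level per transcript length and library size), with no further scaling. These also did not overlap between groups, and the log2 difference was 0.27, against 0.46 for the FPKM of the whole gene. The added 0.5 weighs more on the lower values, and without it the differences were 0.32 and 0.48. Mrtfa, at 38.1 to 41.1 scaled TPM as a whole gene, had 13.1 to 15.3 FPKM over such exons. Those of Tagln were thus low for the level of the whole gene. The part of read splitting in the Tagln difference was not tested.

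Cnn1 (chr9:22010512-22020926), calponin 1, an actin-binding protein of differentiated smooth muscle, was listed at 0 in both wild-type libraries and was at 0.0504 and 0.0192 scaled TPM in the K97E libraries. These values rest on an estimated 6.6 and 2.3 reads, and Cnn1 was not tested. Of the 8 smooth muscle and pericyte markers of the list in the files, Myh11, Lmod1, Rgs5 and Kcnmb1 were also below a mean of 0.5 TPM, while Des, Pdgfrb, Cspg4 and Mcam were above it. The summed level of the 8 was 489, 549, 470 and 471 scaled TPM, most of it Des, which is also a muscle gene.

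Vcl (chr14:20979466-21083744), vinculin, which ties actin filaments to cell adhesions, was at 133 and 163 scaled TPM in the wild-type libraries and at 194 and 151 in the K97E libraries. The order of the libraries was that of Acta2, with K97E replicate 1 highest, wild-type replicate 1 lowest and the groups overlapping. The means were 148 ± 21.6 and 172 ± 30.9 (SD, n = 2 each), a log2 difference of 0.22 ± 0.16 SE (95% interval -0.19 to 0.63, limma adjusted p = 0.965). Leaving out K97E replicate 1 gave 0.03, leaving out wild-type replicate 1 gave 0.07, and leaving out the second replicate gave 0.37 (wild type) or 0.40 (K97E). The last exon of Vcl overlaps Ap3m1 on the other strand over 2090 of 5267 bases (39.7%). Ap3m1 differed by -0.16. The whole exons of Vcl that overlap no other gene gave 0.29 on the FPKM scale, against 0.24 for the FPKM of the whole gene.

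Myl9 (chr2:156617340-156623578), the regulatory light chain of smooth muscle and non-muscle myosin, spread the most. It was at 62.2 and 96.8 scaled TPM in the wild-type libraries and at 124 and 66.5 in the K97E libraries. The groups overlapped, since 1 library of each group was high and 1 was low. The means were 79.5 ± 24.5 and 95.1 ± 40.5 (SD, n = 2 each), a log2 difference of 0.22 ± 0.34 SE (95% interval -0.62 to 1.07, limma adjusted p = 0.965). The difference turned to -0.22 when K97E replicate 1 was left out and to -0.10 when wild-type replicate 1 was, while leaving out the second replicate gave 0.54 (wild type) or 0.67 (K97E).

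Fhl2 (chr1:43162234-43236144), a LIM-only protein that binds actin-linked adhesion proteins and can compete with MRTFs on SRF, was at 154 and 166 scaled TPM in the wild-type libraries and at 196 and 169 in the K97E libraries. The groups did not overlap, but the gap from 166 to 169 was narrow. The means were 160 ± 8.62 and 183 ± 18.6 (SD, n = 2 each), a log2 difference of 0.18 ± 0.11 SE (95% interval -0.09 to 0.46, limma adjusted p = 0.965). Leaving out K97E replicate 1 gave 0.08 and leaving out K97E replicate 2 gave 0.29. The transcript behind the box shown for Fhl2, ENSMUST00000008280, held 99.3% to 99.8% of the gene.

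**Figure D3:**
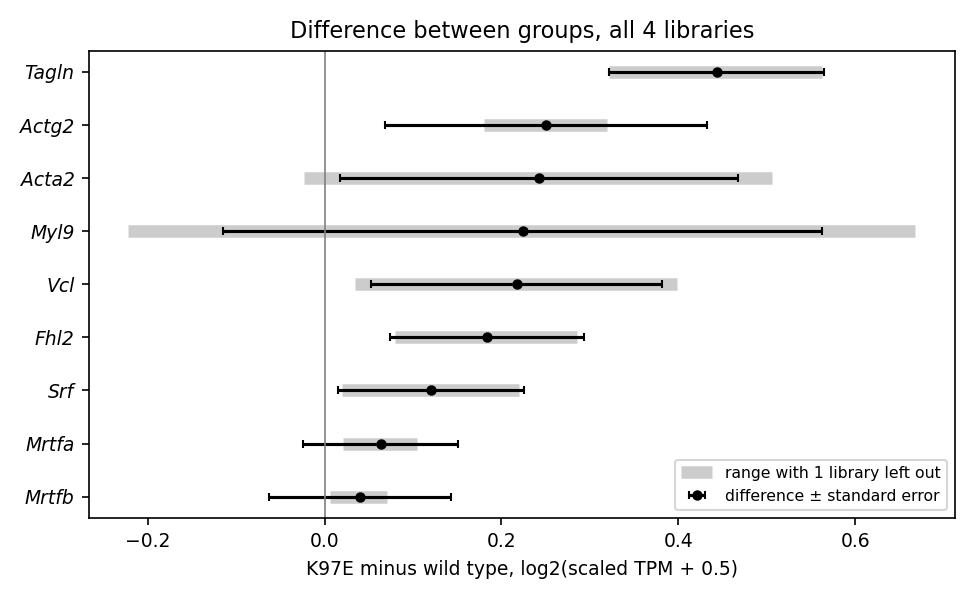
K97E-minus-wild-type difference of log2(scaled TPM + 0.5) for the 9 tested genes; points are the limma estimates, black bars 1 standard error, and grey bars the range when 1 of the 4 libraries is left out. Only the grey bars of Acta2 (-0.02 to 0.51) and Myl9 (-0.22 to 0.67) cross 0, and of the others that of Tagln (0.32 to 0.56) lies farthest from 0.

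The order of the libraries differed among the 9 genes, apart from the highest. K97E replicate 1 was the highest of the 4 libraries in 9 of 9 genes, against 23.6% of all tested genes. Wild-type replicate 1 was the lowest in 5 of 9 (Acta2, Actg2, Myl9, Vcl and Fhl2), against 33.2%. The median position of the 9 genes around their own 4-library mean was -0.15, -0.04, 0.20 and -0.01 log2 units in wild-type replicates 1 and 2 and K97E replicates 1 and 2, while over all tested genes each of these medians was 0.00 in size. For Acta2, Vcl and Myl9, wild-type replicate 2 lay above K97E replicate 2, and for the other 6 genes it lay below. K97E replicate 1 also had the most estimated reads, 115619000, and wild-type replicate 1 the fewest, 89612700, and the part of depth in this order was not tested.

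**Figure D4:**
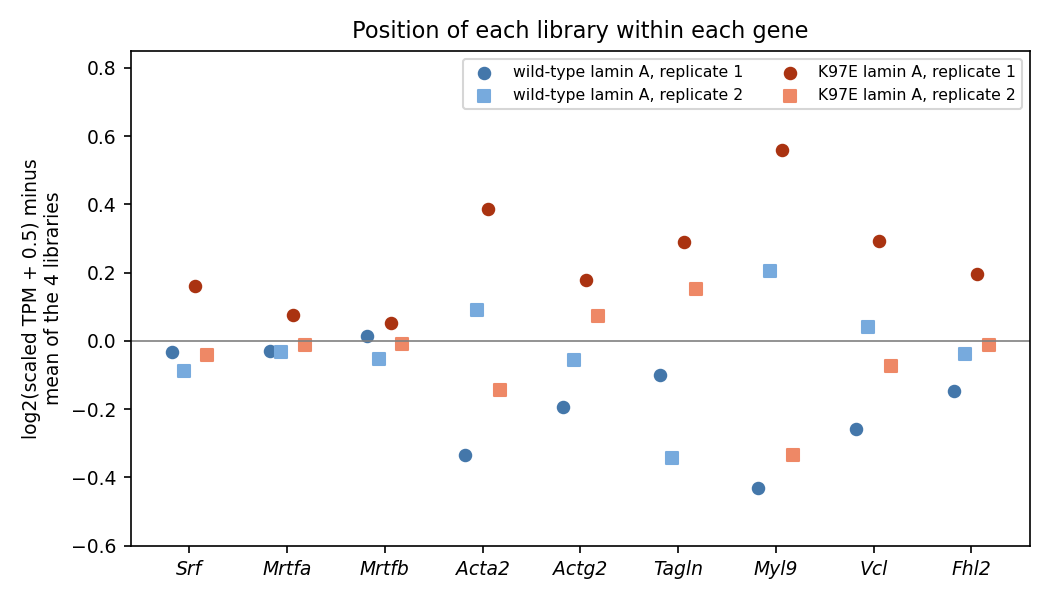
Position of each library within each of the 9 tested genes, as log2(scaled TPM + 0.5) minus the mean of the 4 libraries; each point is 1 library. K97E replicate 1 (dark red circles) is the highest in all 9 genes, and for Acta2, Myl9 and Vcl wild-type replicate 2 (light blue squares) is above K97E replicate 2 (orange squares).

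Lists of genes around the SRF pathway, 4 in all, were set beside the 10 genes, and 0 genes of any list were called by limma. Of 37 tested cytoskeletal SRF and MRTF targets other than the 7 above, 24 lay above 0 and 13 below, with a median log2 difference of 0.05, and K97E replicate 1 was the highest library in 19 of 37. The most abundant of them, Myl6, Myh9, Flna and Tpm4, differed by 0.01, 0.08, 0.24 and -0.01. Flna, the actin crosslinker filamin A, was at 549 and 664 scaled TPM in the wild-type libraries and at 730 and 692 in the K97E libraries, without overlap (adjusted p = 0.965 by limma). Its difference was 0.96 with the top transcript alone, and leaving out wild-type replicate 1 gave 0.10 while leaving out the other gave 0.37. Over the whole list of 37, 4 genes were higher in K97E without overlap (Csrp2, Flna, Myh10 and Ccn2), against 16.3% of all tested genes. Another 4 were lower (Mylk, Tpm2, Des and Enah), against 16.8%. Enah, among the lower, was the only one with an unadjusted p under 0.05 by limma, which 2.54% of all tested genes had with K97E lower. The list median lay between -0.03 and 0.10 when 1 library was left out.

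Of the other actin isoforms, 2 were tested. Actb, cytoplasmic beta actin, was at 2353 and 2372 against 2447 and 2471 scaled TPM, a log2 difference of 0.06 that turned to -0.003 with voom weights and to -0.08 with the top transcript alone, and was 0.12 in TPM as deposited and 0.19 under quantile normalization. Actg1, cytoplasmic gamma actin, was at 1345 and 1686 against 1852 and 1539, the library order seen in Acta2 and Vcl, and differed by 0.17. It turned to -0.01 with the top transcript alone, and was -0.0004 when wild-type replicate 1 was left out and 0.33 when the other was. Acta1, skeletal alpha actin, was between 0.116 and 0.170 and was not tested. The promoter windows of Actg1, Acta1 and Actc1 each held a CArG box. Among genes with a window in the other lists, the box was in 4 of 32 cytoskeletal targets (12.5%) and 2 of 14 cofactors and regulators (14.29%). It was also in 1 of 8 immediate early targets of the TCF type (12.5%). Over all genes with a window the share was 1.81%.

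Of 12 tested cofactors and regulators of SRF and the MRTFs, 7 lay above 0 and 5 below (median 0.04). Mical2, an enzyme that oxidizes actin and favours MRTF activity, was at 61.8 and 62.5 against 70.4 and 68.4, and Fhl3, a relative of Fhl2, at 98.2 and 95.4 against 104 and 104. Neither overlapped between groups, and their log2 differences were 0.16 and 0.10 (adjusted p = 0.965 for both by limma). Over the list of 12, 5 were higher in K97E without overlap (Elk3, Fhl1, Fhl3, Mical2 and Gata4), against 16.3% of all tested genes. Another 1, Phactr4, was lower without overlap, against 16.8%. Emd (emerin) and Xpo1, the exporter of many nuclear proteins, differed by -0.06 and -0.05, and both turned to just above 0 in TPM as deposited. Of 10 tested immediate early targets of the TCF type, 5 lay on either side of 0 (median 0.01). Junb was at 161 and 154 against 141 and 148, Ier3 at 98.2 and 154 against 99.9 and 92.1, Mcl1 at 91.7 and 90.0 against 90.2 and 84.6, and Egr1 at 65.5 and 46.0 against 50.9 and 51.5. All 4 had differences below 0, of -0.12, -0.36, -0.06 and -0.10. Junb alone of them was lower in K97E without overlap, which 16.8% of all tested genes were. The Ier3 difference was -0.03 when wild-type replicate 2 was left out and -0.69 when wild-type replicate 1 was. Mcl1 lay just above 0 in TPM as deposited, and the Egr1 difference ran from -0.35 to 0.15 with 1 library left out. Of the less abundant genes of this list, Fosb, Egr3 and Ier2 were higher in K97E without overlap, which 16.3% of all tested genes were. Fosb was the only one of the list with an unadjusted p under 0.05 by limma, which 1.14% of all tested genes had with K97E higher.

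**Figure D5:**
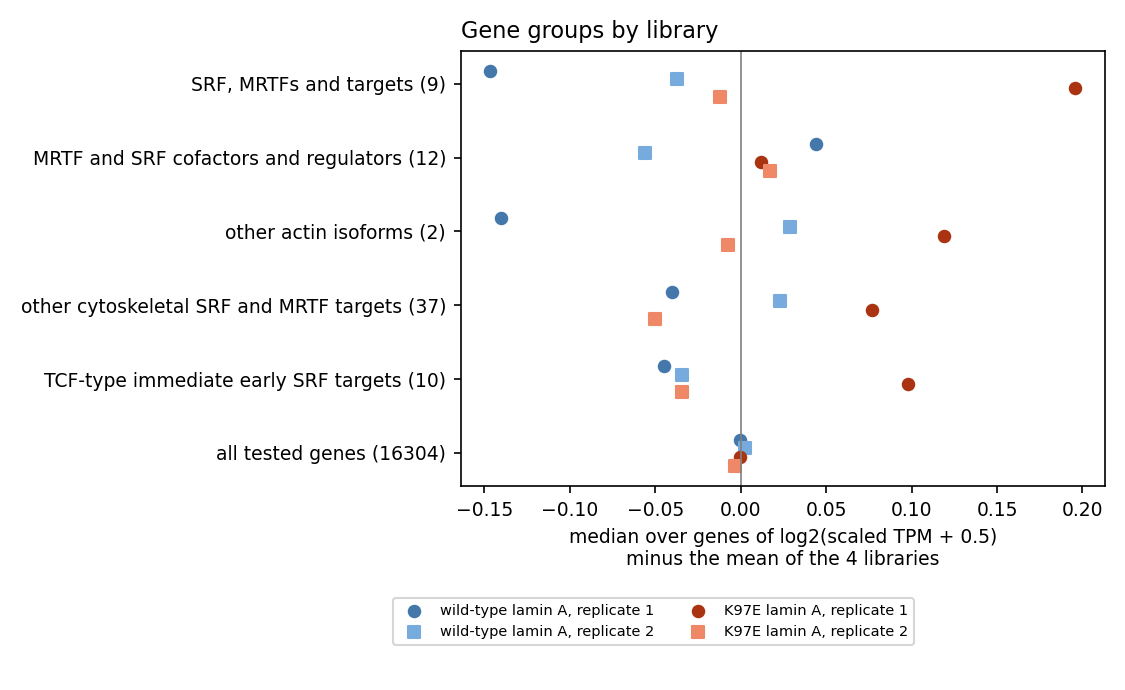
Median over the genes of each group of log2(scaled TPM + 0.5) minus the mean of the 4 libraries, with the number of tested genes in brackets; each point is 1 library. The 9 SRF, MRTF and target genes run from -0.15 in wild-type replicate 1 to 0.20 in K97E replicate 1, and all tested genes lie at 0.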

How the data were processed

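One library per file was deposited as a transcript annotation with TPM, FPKM and mean coverage per annotated transcript, made with StringTie 2.1.7 guided by Ensembl release 104 of GRCm39, per the file headers; these deposited values are in units other than counts (TPM was used, FPKM as an alternative). HISAT2, SAMtools, FastQC and DESeq2 are named without a role per the submitters' processing notes. The kit was stranded and reads were 100 bases long, paired, per the labels' protocols. Gene TPM was summed, divided by median-of-ratios factors, taken as log2(value + 0.5) and tested with limma 3.58.1 (R 4.3.3, with trend, two-sided, Benjamini-Hochberg). The test covered 16304 of 55416 genes, those with a mean of at least 0.5 in TPM before that division. Estimated reads are coverage times length over read length. Promoters were matched by symbol to RefSeq. The script was tested on simulated data. The rule for named genes took the 10 members, the 4 most abundant of each pathway list, the 2 most abundant of each marker list and Lmna; not all marker genes of the rule are printed. Genes that overlap members, and list genes named as untested, not overlapping, under an unadjusted p of 0.05 or with a CArG box, were chosen after their values were seen. Members and lists were chosen with earlier results of these data known. The planned comparison of proteins was not made. One list of pathway genes and 1 gene of another list are not reported here.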

Additional observations from a re-analysis of the deposited data

How the results depend on the processing

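Of the 10 genes, 0 were called under all 16 other settings and under the crossed pairing. All 9 tested genes kept a positive difference except under the top transcript alone, which gave 2 negative (Mrtfa -0.2817, Mrtfb -0.016), and under leaving out 1 library, which gave 0 to 2 (Acta2 from -0.0231 to 0.5062, Myl9 from -0.2218 to 0.6681). The genes called over the whole table, 1 as reported, were 0 with no filter, 2 with TPM as deposited, 2 without trend, 4 with voom weights, 4 with the top transcript and 0 to 14 with 1 library left out. With the replicate block 0 genes were called. The deviations of same-numbered libraries correlated at -0.137, a single value that cannot tell whether the numbers mark paired samples. A crossed pairing, chosen after seeing the data, called 30 genes. Turned by a setting were Xpo1 (0.0072), Emd (0.0019), Tpm4 (0.0478) and Mcl1 (0.0008) in TPM as deposited, Tpm4 (0.0801) under quantile normalization, Tpm4 (0.0184) in FPKM, Actb (-0.003) with voom, and Actb (-0.0799) and Actg1 (-0.0135) with the top transcript. With 1 library left out, Xpo1 ran from -0.1091 to 0.0057, Emd from -0.1363 to 0.0208, Actg1 from -0.0004 to 0.3275, Myl6 from -0.0541 to 0.078, Tpm4 from -0.1022 to 0.0794 and Egr1 from -0.3531 to 0.1505. List medians then ran from -0.052 to 0.0559 (cofactors), 0.0242 to 0.1952 (actins), -0.0326 to 0.0996 (cytoskeletal) and -0.0902 to 0.1317 (TCF type). The cofactor median was 0.0989 in TPM as deposited and the actin median -0.0467 with the top transcript. A group left with 1 library was assumed to vary like the other group. The causes were not tested. Actg2 and Cnn1 rest on few reads, an estimated 62.2 to 110 and 0 to 6.6 per library.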
